A study of Mus musculus with 6 samples.

Results

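Transcript levels of 10 Kruppel-like factor genes, Klf2, Klf3, Klf4, Klf5, Klf6, Klf7, Klf9, Klf10, Klf11 and Klf13, were followed in stem cells sorted from the hair germ of mouse skin. They were taken by gene symbol from the 46517 genes of the deposited files, and all 10 were found. The hair germ is the cluster of epithelial stem cells at the base of the resting hair follicle that starts a new hair cycle. RNA was sequenced from 6 libraries in 3 groups of 2, from mice 60 days old and, per the design text, 3 days after the hair was pulled out to activate the cells. The double knockout (LEF1_TCF7dKO) carried Lef1 fl/fl and Tcf7-/-, LEF1cKO carried Lef1 fl/fl, and the group labelled WT carried neither. All of them, WT included, carried the Sox9-CreER driver and the R26-lox-stop-lox-YFP reporter. Lef1 is therefore deleted only where a Sox9-driven recombinase is active, while the Tcf7 mutation is present in every cell of the double knockout mice. The LEF1 and TCF7 proteins bind DNA and recruit beta-catenin, the effector of Wnt signalling. Cells were sorted on the YFP reporter together with surface proteins that include P-cadherin and CD34. The labels give mixed sex and do not say whether each library is a separate animal. The p-values therefore cover only how far these samples differ from each other, which may be technical variation.

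Kruppel-like factors are transcription factors with C2H2 zinc fingers at the C terminus that bind GC-rich and CACCC-type elements, and they differ in the N-terminal parts that recruit coactivators or corepressors. In the epidermis KLF4 is needed for the skin barrier and acts in cells that have left the basal layer. KLF5 is found in dividing keratinocytes, KLF3 recruits the CtBP corepressors, and KLF2 is best known from endothelial cells and resting T cells. KLF9, KLF10, KLF11 and KLF13 recruit the Sin3 corepressor, and hormones or TGF-beta induce several of them.

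Promoter windows from RefSeq on GRCm38.p6, covering 250 bases before and 50 after the annotated start, were held for 8 of the 10 genes. Klf5 and Klf10 had no entry. The windows of 3 genes that rose in the double knockout are shown first, then that of Klf6, an abundant member whose change did not pass the test. Each is written 5′ to 3′ on the strand of its gene, and capitals mark every match to the searched motifs on either strand. These were the GC box (GGGCGG), the CACCC box (CCACACCC, and also CCACCC), the CCAAT box (CCAAT), the E-box CACGTG, a TCF/LEF core (AACAAAG, and also ATCAAAG, and also TACAAAG, and also TTCAAAG), an AP-1 site (TGACTCA, and also TGAGTCA), the cAMP response element (TGACGTCA) and the TATA box (TATAAA).
Klf2, chr8:72318812-72319111, plus strand: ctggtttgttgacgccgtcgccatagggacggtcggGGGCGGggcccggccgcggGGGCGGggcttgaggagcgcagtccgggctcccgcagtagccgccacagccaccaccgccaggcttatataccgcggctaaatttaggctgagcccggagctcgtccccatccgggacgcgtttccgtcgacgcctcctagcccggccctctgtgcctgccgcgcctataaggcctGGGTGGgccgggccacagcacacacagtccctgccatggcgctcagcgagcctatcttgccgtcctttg
Klf3, chr5:64803271-64803570, plus strand: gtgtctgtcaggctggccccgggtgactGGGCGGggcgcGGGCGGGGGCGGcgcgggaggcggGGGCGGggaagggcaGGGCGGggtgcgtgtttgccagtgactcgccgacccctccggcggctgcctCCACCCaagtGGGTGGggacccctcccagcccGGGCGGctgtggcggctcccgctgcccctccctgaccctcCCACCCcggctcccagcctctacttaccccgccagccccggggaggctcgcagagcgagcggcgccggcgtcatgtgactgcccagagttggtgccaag
Klf4, chr4:55532426-55532725, minus strand: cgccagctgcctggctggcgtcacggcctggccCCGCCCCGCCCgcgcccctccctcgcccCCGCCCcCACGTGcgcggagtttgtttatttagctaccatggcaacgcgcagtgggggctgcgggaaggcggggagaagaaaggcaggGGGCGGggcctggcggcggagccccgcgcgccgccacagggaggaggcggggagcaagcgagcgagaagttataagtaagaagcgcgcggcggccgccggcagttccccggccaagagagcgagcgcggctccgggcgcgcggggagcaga
Klf6, chr13:5861239-5861538, plus strand: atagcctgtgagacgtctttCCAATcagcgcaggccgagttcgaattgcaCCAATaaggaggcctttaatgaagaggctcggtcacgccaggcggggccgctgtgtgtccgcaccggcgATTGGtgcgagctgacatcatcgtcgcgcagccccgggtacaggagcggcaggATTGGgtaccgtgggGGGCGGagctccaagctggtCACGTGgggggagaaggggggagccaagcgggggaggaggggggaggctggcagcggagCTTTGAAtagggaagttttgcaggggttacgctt

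GC boxes were the most frequent match. They were found in 7 of the 8 windows, all but that of Klf9, against 35.7% of all 32851 promoter windows. Klf3 held 6 of them and Klf4 held 4. The CACCC box was found in 4 windows, those of Klf2, Klf3, Klf7 and Klf13, against 33.6% of all windows. The TCF/LEF core was read in 1 window, that of Klf6, where it began 17 bases after the start, against 16.9% of all windows. The E-box was found in Klf4, Klf6 and Klf11 (7.15% of all windows), and the CCAAT box in Klf6, Klf9, Klf11 and Klf13 (37.4%). The AP-1 site, the cAMP response element and the TATA box were in 0 of the 8 windows (5.20%, 1.79% and 13.6% of all windows). The GC content was 69.3% for Klf2, 76.7% for Klf3, 74.3% for Klf4 and 63% for Klf6, above the median of 52.7% over all windows. A pair of GC boxes overlapped in the Klf4 window and another in the Klf11 window, and each box was counted. These are matches of letters and not measured binding sites.

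The libraries held 40480694 to 63220022 expected counts, and 19640 genes were tested, all 10 Kruppel-like factor genes among them. Their lowest count in any library was 681, for which counting error alone gives 3.83%. Lef1 stood at 9.22 and 9.42 TPM in the double knockout, 13.5 and 8.37 TPM in LEF1cKO and 21.4 and 20.4 TPM in WT. Tcf7 stood at 13.7 and 18.0, 29.3 and 27.8, and 26.9 and 36.0 TPM in the same groups, so transcript of both genes was still read in the knockouts. Cdh3 and Lhx2, markers of the sorted population, were read in every library, at lower levels in the double knockout. Krt14 and Krt15, also basal and hair germ genes, were higher there. Krt14 had 6699 and 8368 TPM in the double knockout against 3410 and 3578 TPM in WT. Krt15 had 1438 and 2310 TPM against 760 and 745 TPM in the same groups. Cdh3, the gene of the P-cadherin used in the sort, had 65.9 and 85.9 TPM in the double knockout, 134 and 116 TPM in LEF1cKO and 134 and 130.1 TPM in WT (double knockout against WT -0.93 ± 0.18, adjusted p = 0.0109). This call was lost without either WT library and without double knockout replicate 1. The stem cell factor gene Lhx2 had 114 and 198 TPM in the double knockout, 402 and 368 TPM in LEF1cKO and 337 and 381 TPM in WT (-1.38 ± 0.27, adjusted p = 0.0118, lost without WT replicate 2). The part of this difference in the Klf levels was not tested. Markers of other cells moved with genotype. Over all genes tested, 18% were called higher in the double knockout than in WT and 19.6% lower. All 10 fibroblast, 9 of 12 endothelial and 11 of 13 immune markers rose in the double knockout against WT, while 16 of 22 suprabasal epidermal genes rose and 13 of 13 genes of cycling cells fell. Without WT replicate 2 these numbers were 5, 0, 9, 12 and 12. Of 12 basal and hair germ genes 3 rose and 6 fell (0 and 2 without WT replicate 2, 0 and 3 without WT replicate 1, 1 and 3 without double knockout replicate 1, 1 and 6 without double knockout replicate 2), and of 6 melanocyte genes 1 rose (0 without any WT or double knockout library). Without WT replicate 1, 1 endothelial marker rose, and without double knockout replicate 1, 3 fibroblast and 5 endothelial markers did. Summed fibroblast markers ran from 2063 to 2615 TPM in the double knockout, 579 to 1102 TPM in LEF1cKO and 281 to 523 TPM in WT. Summed endothelial markers ran from 59.4 to 217, 34.4 to 41.4 and 29.9 to 33.0 TPM, and summed immune markers from 825 to 888, 204 to 321 and 43.9 to 119 TPM. Of these lists, 0 genes were at 0 in any library. In such mixed RNA, fewer cells of a type and less RNA per cell cannot be told apart.

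Klf4 and Klf6 were the most abundant members by length-scaled level in every library. TPM is the share of a library's transcripts, scaled for gene length, so levels can be set side by side between genes. The 10 genes summed to 1138 and 1043 TPM in the double knockout, 741 and 591 TPM in LEF1cKO and 547 and 658 TPM in WT. The double knockout libraries were both above the other 4, and LEF1cKO and WT overlapped. In WT the order of mean levels ran from Klf6 and Klf4 through Klf13, Klf5, Klf9, Klf3, Klf10, Klf11 and Klf2 to Klf7. In that order Klf6 and Klf4 overlapped between their libraries, as did Klf3 with Klf10 and Klf11 with Klf2. In the double knockout Klf4 led, followed by Klf6, Klf3, Klf5, Klf13, Klf2, Klf9, Klf10, Klf11 and Klf7, and Klf2 and Klf9 were the neighbours that overlapped. In LEF1cKO the order was Klf4, Klf6, Klf13, Klf5, Klf9, Klf3, Klf10, Klf2, Klf11 and Klf7. There Klf4 overlapped with Klf6, and each gene from Klf5 down to Klf2 overlapped with the next gene in the order.

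**Figure D1:**
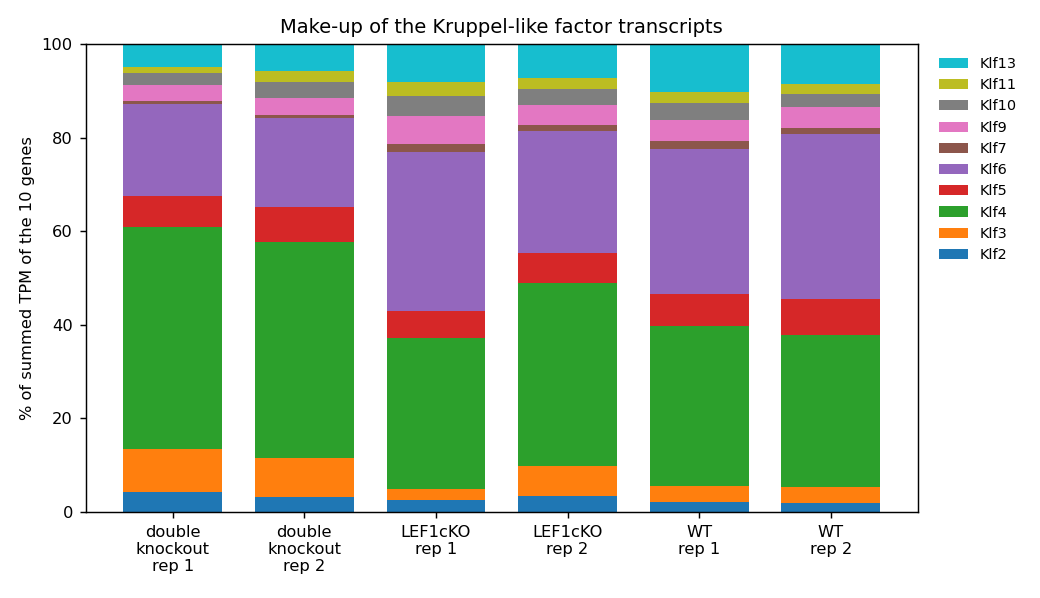
Share of each gene in the summed TPM of the 10 Kruppel-like factor genes (vertical axis, percent), 1 bar per library. Klf4 made up 47.4% and 46.1% in the double knockout, 32.4% and 38.9% in LEF1cKO and 34.1% and 32.5% in WT, and the Klf6 band was narrower in the double knockout.

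The make-up of the family differed between the double knockout and WT. Klf4 took 46.8 ± 0.897% of the summed level in the double knockout, 35.6 ± 4.65% in LEF1cKO and 33.3 ± 1.16% in WT (SD, n = 2 each). Klf3 took 8.77 ± 0.678%, 4.44 ± 2.87% and 3.43 ± 0.0334% in the same order. The share of Klf6 was 19.6% and 19.0% in the double knockout, 34.0% and 26.1% in LEF1cKO and 31.0% and 35.3% in WT. For each of these genes the double knockout lay outside the range of WT. A share falls when another member rises, so it says nothing on the level of Klf6 itself. Without Klf4, the other 9 genes summed to 598 and 562 TPM in the double knockout, 501 and 361 TPM in LEF1cKO and 360 and 445 TPM in WT.

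Against WT, 4 members rose in the double knockout, Klf2, Klf3, Klf4 and Klf5, and 0 fell. The comparison sets cells sorted from Lef1 fl/fl, Tcf7-/- mice beside those of WT, and markers of other cells differed between these libraries as well. Over all genes tested, 18% were called higher, 19.6% lower and 37.6% in either direction, so a count of 4 of 10 in either direction is near the background. Adjusted p comes from quasi-likelihood tests in edgeR, adjusted over all genes by the Benjamini-Hochberg method, with a threshold of 0.05, and effects are log2 fold changes ± SE. The median log2 fold change was 0.51 over the 10 members and 0.01 over all genes. TPM of the groups did not overlap for 8 members, against 74.1% of all genes tested, and in 7 of them the double knockout was higher (43.4%), the exception being Klf7, which was lower (30.7%). At an unadjusted p under 0.05 there were 4 members, against 48.5% of all genes. The members called numbered 3 to 6 when single libraries were left out.

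**Figure D2:**
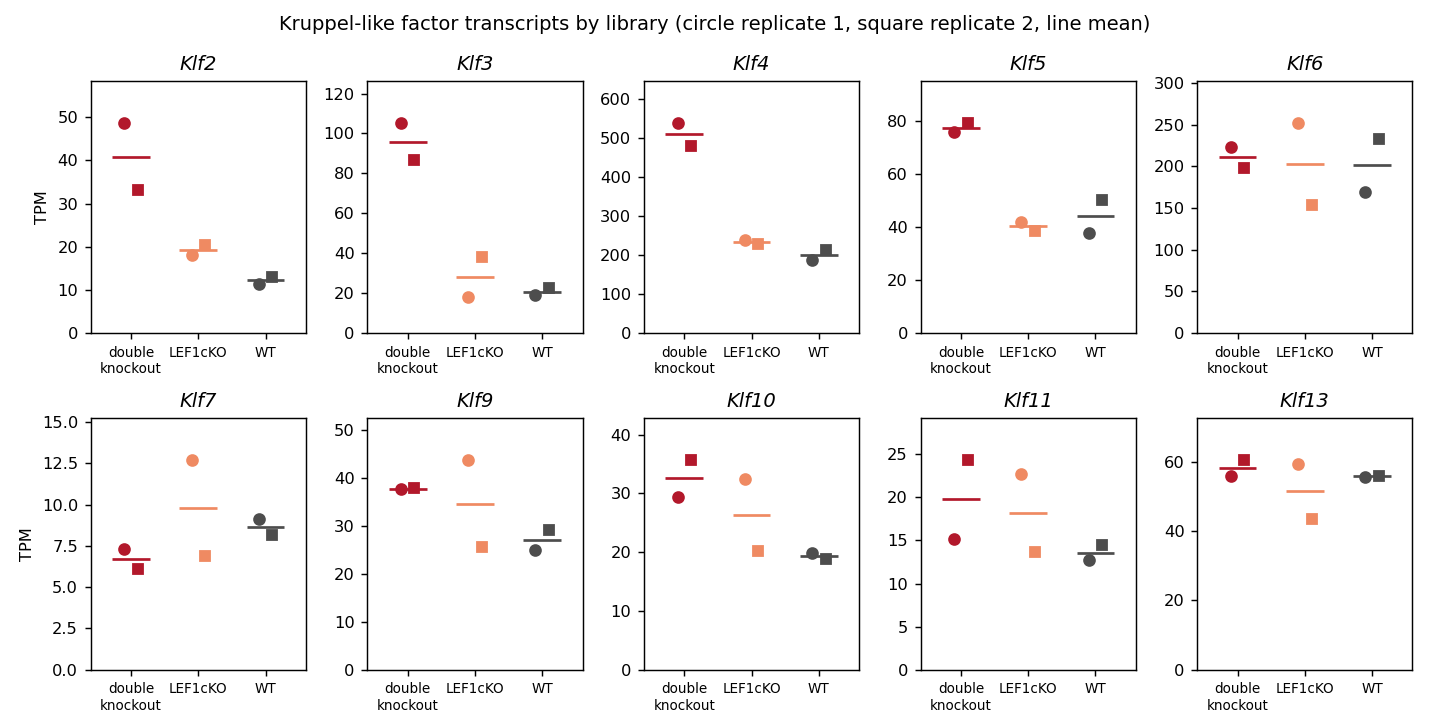
Level of each Kruppel-like factor gene in TPM (vertical axes, linear and starting at 0), with a circle for replicate 1, a square for replicate 2 and a line at the group mean (n = 2). For Klf2, Klf3, Klf4 and Klf5 both double knockout libraries lay above the other 4, and for Klf6 and Klf13 the groups overlapped.

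Klf4, the barrier-forming factor of the family, had 539 and 481 TPM in the double knockout, 239.7 and 229.9 TPM in LEF1cKO and 186 and 214 TPM in WT. Both double knockout libraries were above every other library. The rise against WT was 1.21 ± 0.14 on the log2 scale, a 2.32-fold change (95% interval 1.84 to 2.92, adjusted p = 0.00376). It kept its call when each of the 6 libraries was left out (highest adjusted p = 0.0303). Genes of the suprabasal epidermis, where KLF4 is known to act, moved alongside. Krt1, a keratin of the first suprabasal layer, stood at 3181 and 2996 TPM in the double knockout against 367 and 315 TPM in WT (3.04 ± 0.16, adjusted p = 0.00108), and its partner Krt10 changed by 3.39 ± 0.22 (adjusted p = 0.00142). Krt77 and Krt78, keratins of the upper layers, rose by 4.67 ± 0.28 and 5.13 ± 0.20 (adjusted p = 0.00133 and 0.000576). The summed suprabasal list ran from 16873 to 17230 TPM in the double knockout, 4988 to 5505 TPM in LEF1cKO and 3774 to 4203 TPM in WT, and its part in the level of Klf4 was not tested.

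Klf5, which encodes the factor of dividing keratinocytes, had 75.9 and 79.3 TPM in the double knockout, 42.0 and 38.6 TPM in LEF1cKO and 37.9 and 50.3 TPM in WT. The double knockout libraries were close together and above the rest. The rise against WT was the smallest of the 4 called (0.68 ± 0.16, 1.60-fold with an interval of 1.21 to 2.10, adjusted p = 0.0221). The call was lost without WT replicate 1 and without either library of the double knockout (highest adjusted p = 0.119). It went up while genes of cycling cells fell: Birc5, the survivin gene of mitosis, had 59.96 and 54.9 TPM in the double knockout against 161 and 154 TPM in WT (-1.48 ± 0.11, adjusted p = 0.00207). The part of cell cycling in the level of Klf5 was not tested.

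Klf3, the gene of the CtBP-recruiting repressor, had 105 and 86.5 TPM in the double knockout, 17.9 and 38.2 TPM in LEF1cKO and 18.9 and 22.4 TPM in WT. The double knockout was far above the rest, and LEF1cKO replicate 2 stood above the other 3 remaining libraries. Its rise against WT was the largest among the 10 members in this fit (2.14 ± 0.24, 4.402-fold with an interval of 2.91 to 6.65, adjusted p = 0.00386), and it kept its call in all 6 leave-outs (highest adjusted p = 0.0322). By level, Klf3 had rank 3 among the 10 genes in both double knockout libraries, ranks 9 and 5 in LEF1cKO and ranks 7 and 6 in WT. Gm20033, a gene on the opposite strand whose exons overlap those of Klf3, was read at 2.95 and 2.55 TPM in the double knockout and at 1.75 TPM or less in WT. The sources used here do not state that counting used the strand, so reads of the overlap could be placed on either gene. Of the corepressor genes themselves, Ctbp2 fell, with 33.1 and 31.5 TPM in the double knockout against 61.9 and 61.0 TPM in WT (-1.07 ± 0.16, adjusted p = 0.00613). Ctbp1, the more abundant CtBP gene, had 136 and 142 TPM in the double knockout against 177 and 183 TPM in WT.

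Klf2, known from endothelial and T cells, had 48.7 and 33.1 TPM in the double knockout, 18.1 and 20.3 TPM in LEF1cKO and 11.4 and 13.0 TPM in WT. The groups were fully separate and ordered, with LEF1cKO between the other two. The rise against WT was 1.60 ± 0.19 (3.03-fold with an interval of 2.19 to 4.19, adjusted p = 0.00408), and it kept its call in all 6 leave-outs (highest adjusted p = 0.0283). Endothelial markers were higher in the same libraries and differed more between them. Cdh5, the cadherin of vessels, stood at 12.3 and 2.41 TPM in the double knockout, 0.90 and 1.07 TPM in LEF1cKO and 0.67 and 0.54 TPM in WT. Summed endothelial markers were 217 TPM in double knockout replicate 1 and 59.4 TPM in replicate 2, against 33.0 and 29.9 TPM in WT. The log2 fold change of Klf2 against WT was 1.34 without double knockout replicate 1 and 1.82 without replicate 2. Of 13 immune markers 11 rose, but the T cell genes Cd3e and Cd3g overlapped between the double knockout and WT. Cd3e had 0.75 and 0.19 TPM in the double knockout against 0.28 and 0.11 TPM in WT. Cd3g had 1.97 and 0.49 TPM against 2.12 and 0.86 TPM in the same groups. The part of vessel and immune cells in the level of Klf2 was not tested.

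Klf6 and Klf7 were not called in the double knockout against WT. Klf6, a broadly expressed gene induced by tissue injury, had 223 and 198 TPM in the double knockout, 252 and 154 TPM in LEF1cKO and 169.6 and 232 TPM in WT, and the groups overlapped. Its log2 fold change against WT was -0.07 ± 0.29, with an interval from -0.77 to 0.63 (adjusted p = 0.86). This leaves room for changes from 0.585-fold to 1.54-fold. The sign of this value turned with library size alone, with a filter of 10 CPM and with TPM. Klf7, studied mostly in neurons and fat, was the lowest member at 7.29 and 6.07 TPM in the double knockout, 12.7 and 6.87 TPM in LEF1cKO and 9.13 and 8.14 TPM in WT. Gm26649, a gene on the opposite strand whose exons overlap those of Klf7, had 2.82 and 1.80 TPM in the double knockout. It had 3.25 and 1.60 TPM in LEF1cKO and 1.99 and 2.32 TPM in WT. Gm13748, which overlaps Klf7 in the same way, was at 0.25 TPM or less. As for Klf3, reads of the overlap could be placed on either gene. The value of Klf7 against WT was -0.47 ± 0.24 (adjusted p = 0.165). It was called lower without either LEF1cKO library (lowest adjusted p = 0.0165) and when only the 2 groups entered the fit (adjusted p = 0.0167).

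The Sin3-recruiting members Klf9, Klf10, Klf11 and Klf13 were not called either in the fit over all 6 libraries. When only the 2 groups entered the fit, Klf9 and Klf10 were called higher (adjusted p = 0.0484 and 0.0174). Klf9, which glucocorticoids and thyroid hormone induce, had 37.7 and 38.0 TPM in the double knockout, 43.9 and 25.6 TPM in LEF1cKO and 25.1 and 29.1 TPM in WT (0.34 ± 0.27 against WT, adjusted p = 0.362). Klf10, the TGF-beta-inducible early gene, had 29.4 and 35.7 TPM in the double knockout, 32.5 and 20.2 TPM in LEF1cKO and 19.9 and 18.9 TPM in WT. Both double knockout libraries of these genes were above both WT libraries, and LEF1cKO replicate 1 reached or passed the lower of the double knockout libraries. For Klf10 the difference against WT was 0.61 ± 0.26 (interval -0.02 to 1.24, adjusted p = 0.113), and it was called without either LEF1cKO library (lowest adjusted p = 0.0202). Klf11, a close relative of Klf10, had 15.2 and 24.4 TPM in the double knockout, 22.7 and 13.7 TPM in LEF1cKO and 12.7 and 14.5 TPM in WT (0.41 ± 0.33, adjusted p = 0.375). Klf13, known in human T cells as an activator of a chemokine gene, had 55.8 and 60.6, 59.4 and 43.5, and 55.8 and 55.9 TPM in the same groups (-0.08 ± 0.20, adjusted p = 0.777). Its interval against WT ran from 0.68-fold to 1.32-fold, and the sign turned with a filter of 10 CPM and with TPM.

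**Figure D3:**
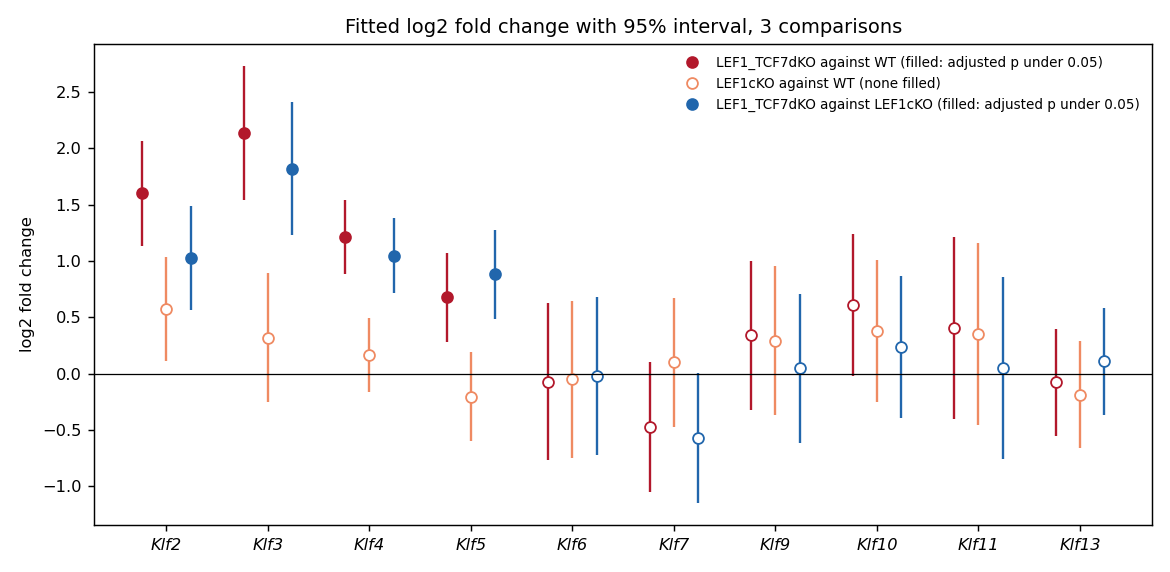
Fitted log2 fold change (vertical axis) of each member in 3 comparisons, with 95% intervals as lines; filled points passed an adjusted p of 0.05 and open points did not. Klf3 had the highest point against WT at 2.14, and in LEF1cKO against WT all 10 points were open.

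In LEF1cKO against WT, 0 of 10 members passed by edgeR, and 0 by DESeq2 or by limma. The background was low as well, with 0.601% of all genes called, 0.224% higher and 0.377% lower. At an unadjusted p under 0.05 there was 1 member, Klf2 (0.57 ± 0.19, adjusted p = 0.385), against 9.58% of all genes. TPM of the groups did not overlap for Klf2, Klf4 and Klf10, each higher in LEF1cKO, against 41.7% of all genes in either direction and 28.3% higher. The median log2 fold change was 0.23 over the members and 0.01 over all genes. The interval for Klf4 ran from 0.89-fold to 1.41-fold and that for Klf5 from 0.66-fold to 1.14-fold, while that for Klf3 reached 1.86-fold. Absence of a call here does not show that the levels were alike.

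The LEF1cKO libraries disagreed on most members. Replicate 1 was higher by at least 0.5 on the log2 CPM scale for Klf6, Klf7, Klf9, Klf10, Klf11 and Klf13, and replicate 2 for Klf3, which makes 7 of the 10 genes. The count of such genes was 2 in the double knockout and 0 in WT. The median absolute difference between libraries over the members was 0.16 in the double knockout, 0.74 in LEF1cKO and 0.20 in WT, against 0.24, 0.27 and 0.13 over all genes tested. The largest in LEF1cKO was that of Klf9, with 43.9 TPM in replicate 1 and 25.6 TPM in replicate 2. Klf2, Klf4 and Klf5 stayed within 0.22. Lef1 itself was at 13.5 TPM in replicate 1 and 8.37 TPM in replicate 2, and fibroblast markers summed to 579 and 1102 TPM. Immediate early genes summed to 11148 and 10690 TPM, but single genes of that list differed in both directions. Nr4a1 had 1051 TPM in replicate 1 and 545 TPM in replicate 2, and Socs3 had 148 and 255 TPM. The part of all these genes in the difference was not tested.

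**Figure D4:**
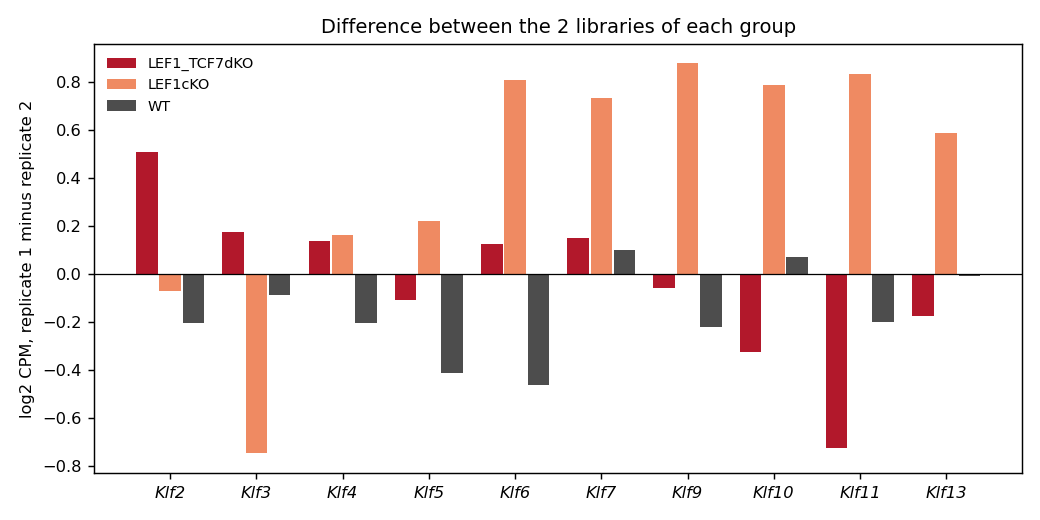
Difference in log2 CPM between replicate 1 and replicate 2 of each group (vertical axis) for each Kruppel-like factor gene. CPM are counts scaled to the library total multiplied by its TMM normalization factor. LEF1cKO bars reach 0.88 for Klf9 and -0.75 for Klf3, and the tallest WT bar is -0.46 for Klf6.

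Between the double knockout and LEF1cKO, which differ by the Tcf7 null allele, Klf2, Klf3, Klf4 and Klf5 were called higher and 0 members lower. This comparison also tests whether the change against WT differed between the knockouts. Over all genes 11.2% were called higher, 14.1% lower and 25.2% in either direction. At an unadjusted p under 0.05 there were 4 members, against 41.5% of all genes. Klf3 differed by 1.82 ± 0.24 (3.53-fold, adjusted p = 0.0113), Klf4 by 1.05 ± 0.14 (2.07-fold, adjusted p = 0.0113), Klf2 by 1.03 ± 0.19 (2.04-fold, adjusted p = 0.0178) and Klf5 by 0.88 ± 0.16 (1.84-fold, adjusted p = 0.018). In both double knockout libraries these 4 genes were above both LEF1cKO libraries, and they were the only members whose TPM did not overlap, against 35% of all genes higher and 64.3% in either direction. Klf7 had a value of -0.57 ± 0.24 (adjusted p = 0.123), and it was called lower without LEF1cKO replicate 2 (-0.90, adjusted p = 0.00789). The 5 remaining members had log2 fold changes from -0.02 to 0.24. All 4 calls were lost without double knockout replicate 1, where 1 of all genes tested was called, and those of Klf2 and Klf5 were lost without LEF1cKO replicate 1. Klf5 was lost without double knockout replicate 2 as well.

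Some members had more than 1 annotated transcript, and the effective length that RSEM gave them varied. In the files the effective length of every gene with counts was its length less 50 bases, within 1 base, although the labels describe paired reads. How RSEM was run is not stated, so effective lengths and TPM rest on that unexplained setting. It ran from 3929 to 4671 bases for Klf3 and from 5699 to 6784 bases for Klf7, and by at most 1.03-fold for Klf4 and Klf13. For the other 6 genes it was constant. In LEF1cKO it was 4671 bases in replicate 1 and 3929 bases in replicate 2 for Klf3, and 5699 and 6784 bases for Klf7. With the effective length as an offset, the double knockout differed from WT by 2.07 for Klf3 (adjusted p = 0.00669).

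Of the other Klf genes, 6 of 7 were tested, and 2 of them rose in the double knockout against WT while 0 fell. Over all genes tested, 18% rose and 19.6% fell. Klf8, which encodes another CtBP-recruiting repressor, had 2.39 and 2 TPM in the double knockout, 0.68 and 1.32 TPM in LEF1cKO and 0.65 and 0.61 TPM in WT (2.06 ± 0.28, adjusted p = 0.0049). Klf12, a further member of that repressor branch, had 2.01 and 0.79 TPM in the double knockout and 0.18 and 0.13 TPM in WT (3.02 ± 0.60, adjusted p = 0.0127), and the call did not hold (highest adjusted p = 0.0892) without either WT library or double knockout replicate 1. Both were low in all libraries. Klf15 and Klf16 had values of 0.09 ± 0.32 and -0.11 ± 0.18 (adjusted p = 0.846 and 0.657).

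The Sp genes encode the closest relatives of the family. Of 6 tested, Sp6, a gene of skin appendages and teeth, rose in the double knockout against WT, and Sp3, a ubiquitous factor, fell. The shares over all genes tested were 18% higher and 19.6% lower. Sp6 had 5.48 and 5.03 TPM in the double knockout, 1.46 and 1.53 TPM in LEF1cKO and 2.47 and 1.63 TPM in WT (1.22 ± 0.25, adjusted p = 0.0133). With WT replicate 2 left out, and likewise double knockout replicate 1, the call was lost (highest adjusted p = 0.0937). Sp3 changed by -0.35 ± 0.10 (adjusted p = 0.044), a call kept in 3 of 11 alternative settings and lost when any WT or double knockout library was left out. Sp5, a known Wnt target, had 1.18 and 2.01 TPM in the double knockout against 0.69 and 1.18 TPM in WT (0.63 ± 0.47, adjusted p = 0.333).

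In the double knockout against WT, 18% of all genes tested rose, 19.6% fell and 37.6% were called in either direction. Among 19 cofactors and ubiquitin ligases of the family, 1 rose and 6 fell, which in either direction is near that last share. Their median log2 fold change was -0.26. Without WT replicate 1, WT replicate 2 or double knockout replicate 1, 2 fell. Besides Ctbp2, the histone deacetylase gene Hdac2 fell (-0.96 ± 0.12, adjusted p = 0.00421), as did Hdac1 (-0.74 ± 0.13, adjusted p = 0.0088) and the ligase gene Wwp2 (-0.54 ± 0.10, adjusted p = 0.00937). Of 20 upstream regulators, 8 rose and 4 fell. Mef2a, whose product activates KLF2 in endothelium, had 66.3 and 50.3 TPM in the double knockout against 21.9 and 24.9 TPM in WT (1.204 ± 0.15, adjusted p = 0.00429). Tgfbr2, a TGF-beta receptor gene, rose, with 46.3 and 39.8 TPM in the double knockout against 20.4 and 18.6 TPM in WT (adjusted p = 0.00469), and the signal transducer gene Smad3 changed by -0.68 ± 0.10 (adjusted p = 0.00633, lost without WT replicate 2). Without WT replicate 1, WT replicate 2 and double knockout replicate 1, the rises among upstream regulators were 3, 2 and 2 and the falls 1, 0 and 1; without double knockout replicate 2 the falls were 1.

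Stress and hormone genes known to be induced together with members of the family were set beside them. Over all genes tested, 18% rose and 19.6% fell in the double knockout against WT. Of 18 immediate early genes, which tissue dissociation can induce along with several Klf genes, 7 rose and 0 fell in the double knockout against WT (median 0.58). Without WT replicate 1, WT replicate 2 and double knockout replicate 2, 1, 2 and 2 rose. Fosb had 1054 and 1159 TPM in the double knockout, 519 and 609 TPM in LEF1cKO and 301 and 427 TPM in WT (1.46 ± 0.21, adjusted p = 0.00556). Of 10 glucocorticoid-induced genes, 3 rose and 3 fell (1 and 2 without either WT library, 3 and 1 without double knockout replicate 1, 2 and 3 without double knockout replicate 2). Tsc22d3, a glucocorticoid target in many cells, had 73.5 and 83.0 TPM in the double knockout against 20.5 and 21.0 TPM in WT (1.76 ± 0.16, adjusted p = 0.00271). The metallothionein gene Mt2 fell to 894 and 1108 TPM in the double knockout, against 3796 and 3438 TPM in WT (-1.99 ± 0.29, adjusted p = 0.00573). The part of these responses in the Klf levels was not tested.

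Genes whose profile over the 6 libraries was most like that of a member were taken by the root mean square difference of centred log2 CPM, among 10447 candidates. Klf4 was nearest to Sik1, a kinase gene, at 0.06, with 168 and 159 TPM in the double knockout, 71.8 and 76.7 TPM in LEF1cKO and 59.9 and 66.0 TPM in WT, followed by Avpi1 at 0.08. Klf3 was nearest to Cyp2b10, a cytochrome gene, and Mst1r, a receptor kinase gene, both at 0.08. Klf2 was nearest to Kctd12 at 0.06 and Dock6 at 0.08, and Klf5 to Csrnp1 at 0.11 and Myd88 at 0.12. The members that were not called had other neighbours: Klf6 was nearest to Lag3 and Fosl2, Klf7 to Suco and Fam117b, Klf9 to Rel and Pim1, Klf10 to Pim1 and Rnf39, Klf11 to Foxo3 and Jun, and Klf13 to Cyr61 and Bcl10. Among the members, Klf9 and Klf10 were the closest pair at 0.16. The points are 6 libraries in 3 groups, so likeness is a description only.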

How the data were processed

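Total RNA of sorted cells was made into mRNA libraries and read as pairs, per the labels' protocols. The submitters' processing notes name Bowtie2 2.2.9, RSEM 1.2.30 and the build mm10; annotation release and strand setting: not given in the sources used here. Expected counts are the authors' RSEM estimates, as deposited. TPM and effective lengths are the authors' RSEM values, per the file headers. Another 92 rows that name no gene had 0 counts and were left out.

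Expected counts were rounded and fitted with edgeR 4.0.16 (R 4.3.3) over all 6 libraries, with TMM factors, filterByExpr by group, the quasi-likelihood test and Benjamini-Hochberg adjustment over all 19640 genes. The fit left 3 residual degrees of freedom, and prior degrees of freedom were 3.11. Intervals are 95% and use the fit's t distribution. Log2 CPM has a prior count of 2. Alternatives used DESeq2 1.42.0 and limma 3.58.1. With 1 library left out, its remaining partner is taken to vary as the other groups do. Members, lists, motifs and the naming rule (all members; up to 4 genes per other list with the smallest p among those called; the 2 nearest profiles) were chosen with earlier results of these data known. Positions are GRCm38.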

Additional observations from a re-analysis of the deposited data

How the results depend on the processing

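The double knockout against WT called 4 members under 10 of 11 alternative settings and 7 when only the 2 groups entered the fit; leaving out single libraries gave 3 to 6. Against LEF1cKO, 4 members were called under all 11 settings and 0 to 5 without single libraries, and 0 members were called in LEF1cKO against WT in any run. The replicate block gave 4, 0 and 4 members and 6435, 80 and 3635 genes and changed no call of a member. Differences between replicate 1 and replicate 2 were nearly uncorrelated between groups over the genes tested (r = -0.04, 0.06 and -0.03). With a single such difference per group, this cannot tell whether same-numbered libraries were handled together. Genes called numbered 1968 to 8333 without single libraries in the double knockout against WT, 78 to 138 in LEF1cKO against WT (422 with no filter and 608 by DESeq2, against 118) and 1 to 5973 between the knockouts (2585 with only the 2 groups, against 4952). The cause was not tested.

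No call of a member turned its direction. Uncalled values near 0 did. In the double knockout against WT, Klf6 was 0.0046 with library size only, 0.065 with 10 CPM in 2 libraries and 0.083 with either TPM setting, and Klf13 was 0.057 and 0.058 to 0.059 under the last 3. Between the knockouts Klf6 was 0.040, 0.11 and 0.095 under those settings and 0.030 by limma voom. TPM with a pseudocount of 0.1 moved the median of all genes to 0.13 in the double knockout against WT. Without single libraries the values ran as follows. In the double knockout against WT they were -0.27 to 0.18 for Klf6, -0.18 to 0.027 for Klf13 and -0.015 to 0.75 for Klf11. In LEF1cKO against WT they were -0.11 to 0.65 for Klf3, -0.39 to 0.017 for Klf5, -0.51 to 0.30 for Klf6, -0.31 to 0.42 for Klf7, -0.21 to 0.66 for Klf9, -0.069 to 0.71 for Klf10, -0.12 to 0.71 for Klf11 and -0.51 to 0.073 for Klf13. Between the knockouts they were -0.38 to 0.44 for Klf6, -0.34 to 0.55 for Klf9, -0.11 to 0.68 for Klf10, -0.37 to 0.53 for Klf11 and -0.16 to 0.43 for Klf13. Nearest genes at a prior count of 0.5 were unchanged except 1 of the 2 for Klf5. With CPM in place of TPM, which drops the length scaling, most shares of the summed level moved by more than 1 SD.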
